A study of Drosophila melanogaster with 12 samples.

Results

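The maltase genes of Drosophila melanogaster are Mal-A1 to Mal-A8, Mal-B1 and Mal-B2. They were taken as the probe sets whose platform annotation gives a single gene symbol and whose symbol is one of these names. All 10 genes were found, each with 1 probe set, out of 18769 probe sets and 11982 named genes on the array. Expression was measured on Affymetrix 3' arrays in w1118 females, a white-eyed laboratory strain, kept from eclosion for 10 days at 25 °C on holidic food, a chemically defined diet. The diet was either left unmodified or enriched with glucose (100 g/L), and RNA came from 5 whole flies or 10 dissected midguts per sample. Each of the 4 combinations of tissue and diet had 3 arrays, 12 in all. Larvae of every group had been raised on standard cornmeal food. Separate cultures are not stated for samples of a group. The p-values therefore describe the scatter among these arrays, which may be technical.

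Maltases are alpha-glucosidases, enzymes that release glucose from the end of maltose and of short sugar chains. They complete the breakdown of starch that amylase begins, and insect alpha-glucosidases also split sucrose. The midgut is the digestive and absorptive part of the fly intestine. In Drosophila, dietary sugar is known to lower the expression of digestive carbohydrases, through signalling that involves the TGF-beta ligand Dawdle. In the RefSeq gene table (Release 6 plus ISO1 MT) the 8 Mal-A genes follow each other on chromosome arm 2R in the order of their numbers, with no other listed gene between them. Mal-B1 and Mal-B2 are neighbours on arm 2L. Older names in that table show that Mal-A1, Mal-A2 and Mal-A3 were first described as the larval visceral proteins LvpH, LvpD and LvpL.

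The dissected samples carried the markers of their tissue. All 6 measured midgut markers, of 8 listed, passed the test as higher in midgut on the unmodified diet, among them the enterocyte gene mex1 by 3.36 and the transcription factor gene GATAe by 2.34 on the log2 scale. The midgut markers had a median difference of 1.77. Malpighian tubule markers, 3 of 4 measured, were all higher in midgut too, at a median of 1.91, and 2 were called. Of the 3 hindgut markers 1 was called higher and 2 lower in midgut. Of all probe sets 14.9% were called higher. The part of Malpighian tubule RNA in the midgut values was not tested. Array medians were 3.43 to 3.47 in midgut and 4.04 to 4.15 in whole fly. One midgut array stood apart: glucose replicate 1 carried ovary and oocyte transcripts, with osk, which organises the germ plasm of the egg, at 9.55 against 1.80 to 5.64 in the other 5 midguts. The log2 of the summed signal of the 5 measured ovary and oocyte markers, of 6 listed, was 10.22 in that array and 5.27 to 6.75 in the other 5.

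**Figure D1:**
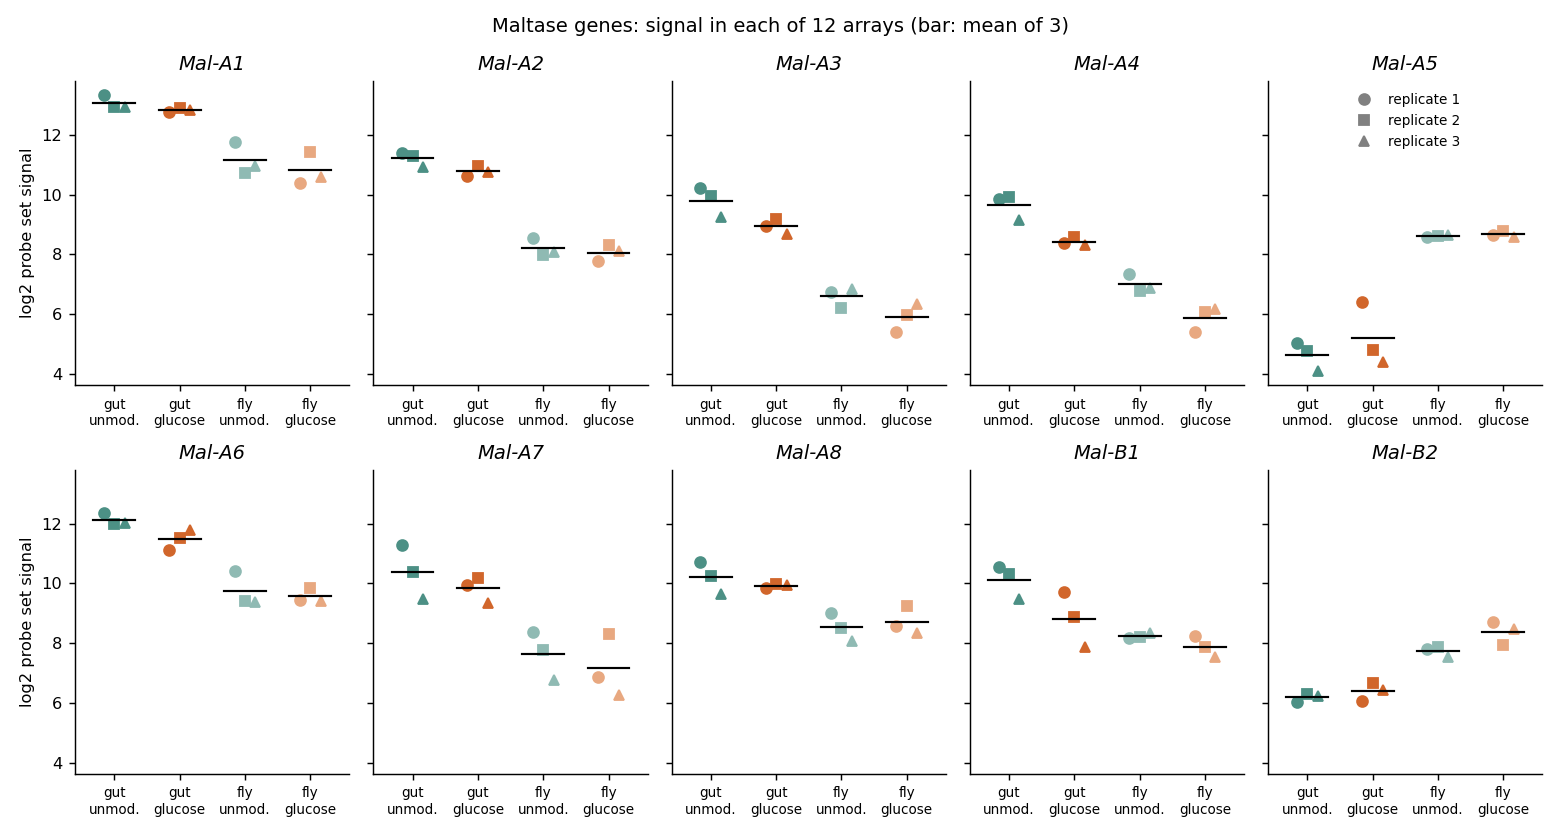
Log2 probe set signal (vertical axis) of the 10 maltase genes in each of the 12 arrays, by tissue (gut, midgut; fly, whole fly) and diet. Symbols mark the replicate number and bars the mean of 3 arrays. Mal-A5 and Mal-B2 are the genes with lower signal in midgut, and Mal-A5 in midgut glucose replicate 1 stands at 6.41, above the other midguts.

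The first comparison set midgut against whole fly and placed the family's expression in the body. Whole flies include the midgut, so these differences set a part against the whole. On the unmodified diet 8 of the 10 genes were higher in midgut and 2, Mal-A5 and Mal-B2, were lower. The limma test (adjusted p under 0.05 by Benjamini-Hochberg over all probe sets) called all 10. It called 55.5% of all probe sets, 14.9% higher and 40.6% lower. The median difference of the 10 genes was 2.15, against -0.14 over all probe sets. In bulk samples of this kind, more cells of a type and more RNA per cell cannot be told apart.

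Mal-A3 showed the largest midgut excess of the family on the unmodified diet. Its signal was 10.22, 9.95 and 9.24 in midguts and 6.74, 6.21 and 6.83 in whole flies, a difference of 3.21 (SE 0.27, n = 3 per group, limma adjusted p 4.00e-07), or 9.26-fold. The midgut values lay well clear of the whole fly values. Mal-A2 followed at 3.01 (SE 0.19) and 8.08-fold, Mal-A7 at 2.75 (SE 0.55), Mal-A4 at 2.64 (SE 0.24) and Mal-A6 at 2.40 (SE 0.26). Mal-A1, Mal-B1 and Mal-A8 differed less, by 1.91 (SE 0.28), 1.89 (SE 0.38) and 1.67 (SE 0.29). For all 8 genes the lowest midgut array lay above the highest whole fly array, which held for 18.9% of all probe sets. The 95% intervals of neighbours in this order overlap, so the order within the 8 is not settled.

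Mal-A5, which lies between Mal-A4 and Mal-A6 on the chromosome, ran the other way. It read 5.04, 4.77 and 4.09 in unmodified midguts and 8.58, 8.63 and 8.65 in whole flies, 15.8-fold lower in midgut (difference -3.99, SE 0.40, limma adjusted p 1.58e-06). The whole fly arrays were tightly grouped, with an SD of 0.035. Mal-B2, the neighbour of Mal-B1, read 6.03, 6.31 and 6.22 in midguts and 7.79, 7.88 and 7.55 in whole flies. It was 2.93-fold lower in midgut (difference -1.55, SE 0.20, limma adjusted p 1.42e-05). For neither gene did the arrays of the tissues overlap, as for 44.1% of all probe sets in that direction. Both groups of chromosomal neighbours held genes called in opposite directions between midgut and whole fly.

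On the glucose-enriched diet 9 of the 10 genes were called, as were 53% of all probe sets. Of the 9, 7 were higher and 2 lower in midgut, against 11.8% and 41.2% of all probe sets. The differences ranged from 3.03 (SE 0.27) for Mal-A3 to -3.48 (SE 0.40) for Mal-A5. Mal-B1 was the gene not called. It read 9.72, 8.87 and 7.87 in glucose midguts and 8.24, 7.88 and 7.53 in whole flies, a difference of 0.94 (95% interval 0.10 to 1.78, limma adjusted p 0.0574). The ranges overlapped, since midgut replicate 3 lay within the whole fly values. Scaling matters for both tissue contrasts. Centring each array on its median moved the median of all probe sets by 0.61 on the unmodified and 0.68 on the glucose diet, and quantile normalization moved it by 0.20 and 0.24. The directions of all 10 maltase genes were the same under both. The unmodified-diet difference of Mal-B2 moved from -1.55 to -0.94 and -0.58 (limma adjusted p 0.000566 and 0.0394). Mal-B1 on glucose was called under both (adjusted p 0.00190 and 0.00502) and without the dimmest probe sets (0.0448), but not with a trended robust prior (0.0952) or in the fit over the 6 arrays of that diet (0.0935). Leaving out 1 array moved its difference between 0.49 without midgut glucose replicate 1 (adjusted p 0.253) and 1.41 without midgut glucose replicate 3 (0.00267). It was also called without midgut unmodified replicate 3 (0.0439).

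**Figure D2:**
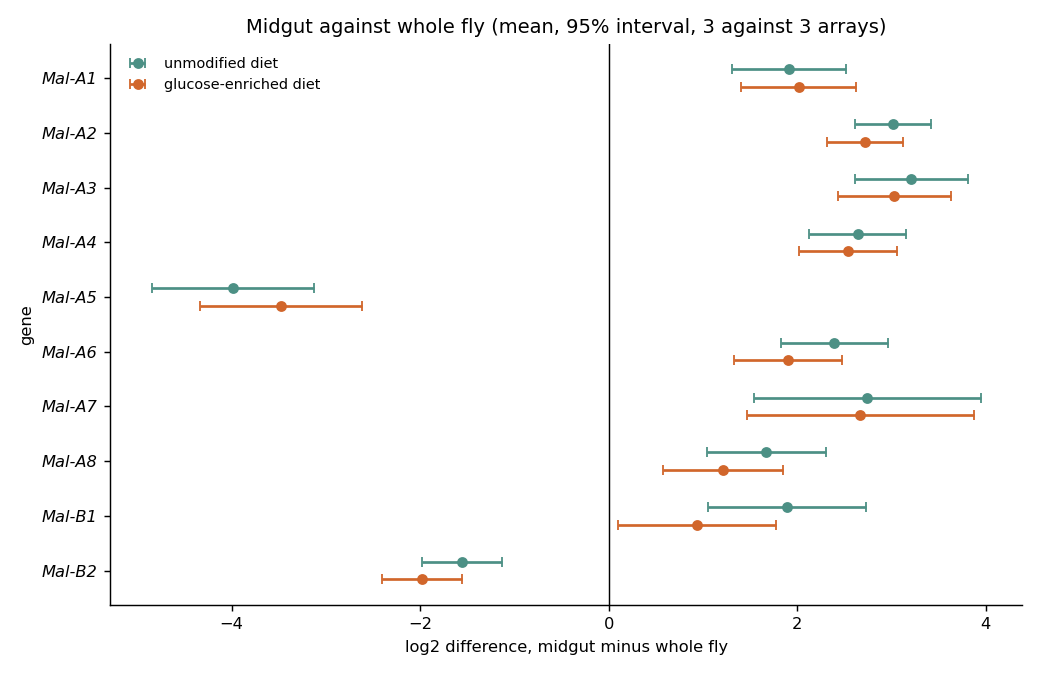
Log2 difference, midgut minus whole fly (horizontal axis), of each maltase gene on the unmodified and the glucose-enriched diet, with 95% intervals from limma over all 12 arrays. On the unmodified diet 8 genes lie above 0, between 1.67 and 3.21, while Mal-A5 lies at -3.99 and Mal-B2 at -1.55.

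The second comparison concerned the midgut on the glucose-enriched against the unmodified diet. Signal on glucose was below that on the unmodified diet for 8 of the 10 genes, with a median difference of -0.49 against 0.00071 over all probe sets. Below 0 lay 49.8% of all probe sets. No maltase gene passed the unpaired limma test over all probe sets, in which 1 probe set in all (0.00533%) was called. At an unadjusted p under 0.05, 5 maltase genes were lower and none higher, against 2.73% and 3.47% of all probe sets.

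Same-numbered midgut samples deviated together, which was taken to pair them. A fit blocked on that number called 24 probe sets (0.128%), 14 of them lower (0.0746%), and Mal-A4 and Mal-B1 were among the lower ones. Without pair 1, 2 or 3 that fit called 38, 10 and 36 probe sets. In 7 of the 10 genes signal was lower on glucose in all 3 same-numbered pairs, against 15.5% of all probe sets. The 3 exceptions were Mal-A8, lower in 2 pairs, and Mal-A5 and Mal-B2, higher in all 3 pairs, as were 17.8% of all probe sets.

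Mal-A4 read 9.86, 9.92 and 9.14 in unmodified midguts and 8.37, 8.59 and 8.30 in glucose midguts. The diets did not overlap, and the glucose samples were the more uniform (9.64 ± 0.43 against 8.42 ± 0.15, SD, n = 3). The gene was 2.33-fold lower, at -1.22 on the log2 scale (95% interval -1.69 to -0.74), with a limma adjusted p of 0.317 unpaired and 0.0377 with the replicate block (SE 0.14). Within pairs the differences were -1.48, -1.33 and -0.84. Blocked and without pair 1 the adjusted p was 0.0575, without pair 2 it was 0.138 and without pair 3 it was 0.0173.

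Mal-B1 read 10.55, 10.32 and 9.49 in unmodified midguts and 9.72, 8.87 and 7.87 in glucose midguts. Its ranges overlapped, because unmodified replicate 3 lay below glucose replicate 1. Within both diets replicate 1 was highest and replicate 3 lowest, and within pairs the differences were -0.84, -1.45 and -1.62. The difference was -1.30 (95% interval -2.34 to -0.26), or 2.47-fold lower. The limma adjusted p was 0.757 unpaired and 0.0484 blocked (SE 0.16). Without pair 1, 2 or 3 the blocked adjusted p was 0.00796, 0.147 and 0.0673, so neither call held in every subset of pairs.

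Of the other Mal-A genes, 3 had no overlap between diets. Mal-A3 read 10.22, 9.95 and 9.24 on the unmodified and 8.94, 9.19 and 8.70 on the glucose diet, a difference of -0.86 (SE 0.25, limma adjusted p 0.690 unpaired, 0.140 blocked). Mal-A6 read 12.37, 11.99 and 12.02 against 11.11, 11.51 and 11.80, a difference of -0.65 (SE 0.19, adjusted p 0.690 and 0.315). Its lowest unmodified and highest glucose arrays were close, at 11.99 and 11.80. Mal-A1, the member with the smallest difference of these, read 12.93 to 13.35 against 12.76 to 12.89, at -0.24 (SE 0.13). With Mal-A4, 4 of the 10 genes lay lower on glucose without overlap, against 5.34% of all probe sets, and none lay higher without overlap, against 6.36%.

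Mal-A2, Mal-A7 and Mal-A8 overlapped between diets. Mal-A2 ranged from 10.94 to 11.41 on the unmodified and from 10.63 to 10.95 on the glucose diet, a difference of -0.44 (SE 0.15). Mal-A7 and Mal-A8 differed by -0.55 (SE 0.42) and -0.27 (SE 0.24), with 95% intervals of -1.52 to 0.41 and -0.83 to 0.28. Unmodified replicate 1 was the highest unmodified midgut for 6 of the 7 midgut-rich Mal-A genes, the exception being Mal-A4. Without it the median difference of the 10 genes was -0.22, and without both replicate 1 midguts it was -0.21. Among the midgut markers mex1 was at -0.28 (SE 0.15) and Vha100-4, a proton pump subunit gene, at 0.38 (SE 0.18), and neither was called. The protease genes betaTry, alphaTry and Jon65Aiv lay at 13.70 to 13.96 in every midgut, close to the top of the range of deposited values. Fat body markers had a median difference of -0.42, with 5 of 5 below 0 and none called. Their summed log2 signal was 13.79 to 13.86 in unmodified and 13.30 to 13.69 in glucose midguts, without overlap. The yolk protein genes Yp1, Yp2 and Yp3 make up most of that sum. Fbp1 was near the array medians, with means of 3.41 in unmodified and 3.39 in glucose midguts. The part of fat body RNA in the midgut values was not tested.

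**Figure D3:**
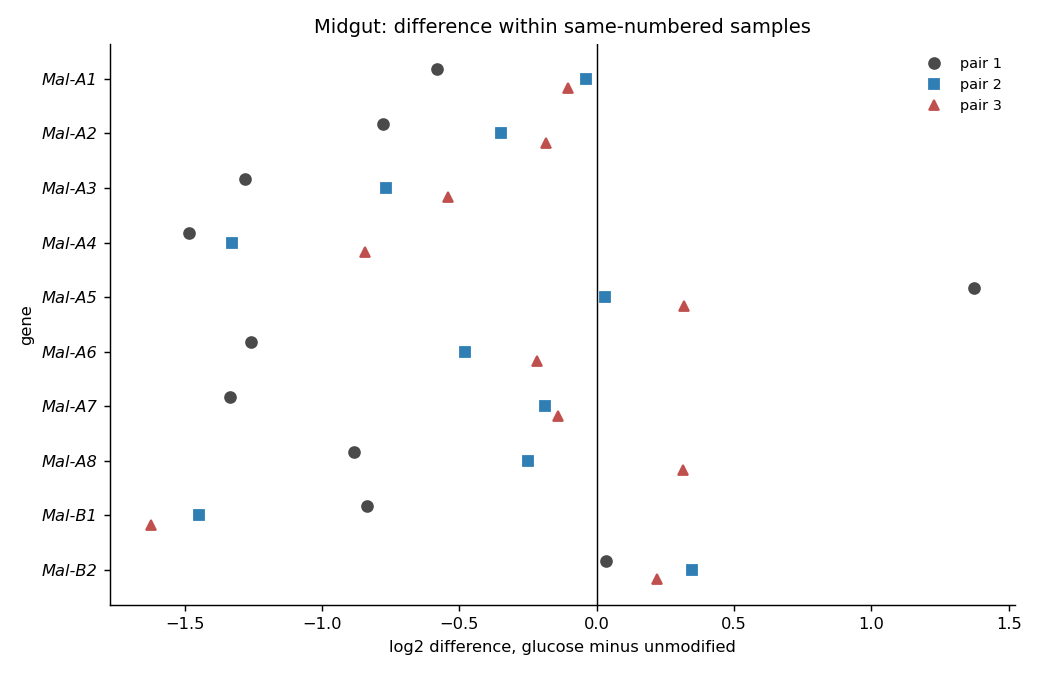
Log2 difference, glucose minus unmodified (horizontal axis), within each same-numbered pair of samples for the 10 maltase genes in midgut. For 7 genes all 3 pairs lie below 0, with Mal-A4 between -1.48 and -0.84.

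The genes with lower signal in midgut than in whole fly did not share the downward difference. Mal-B2 read 6.03, 6.31 and 6.22 on the unmodified and 6.07, 6.66 and 6.44 on the glucose diet, a difference of 0.20 (95% interval -0.17 to 0.57, limma adjusted p 0.846). Mal-A5 read 5.04, 4.77 and 4.09 against 6.41, 4.80 and 4.41, a difference of 0.57 (95% interval -0.55 to 1.70, limma adjusted p 0.849). That value depended on 1 array. Glucose replicate 1, the midgut with ovary and oocyte transcripts, had the highest Mal-A5 signal, and without it the difference was -0.029. Replicate 1 was the highest array in both diets, and without both replicate 1 midguts the difference was 0.17. In glucose replicate 1 orb, which encodes a regulator of oocyte translation, was at 6.32, Marf1 at 5.62 and the vitelline membrane gene Vm26Aa at 8.23. The ovary and oocyte marker bam was not highest there, at 3.15 against 3.26 in unmodified replicate 1. In whole flies, which contain ovaries, Mal-A5 was at 8.58 to 8.79. The part of ovary RNA in the midgut value was not tested.

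**Figure D4:**
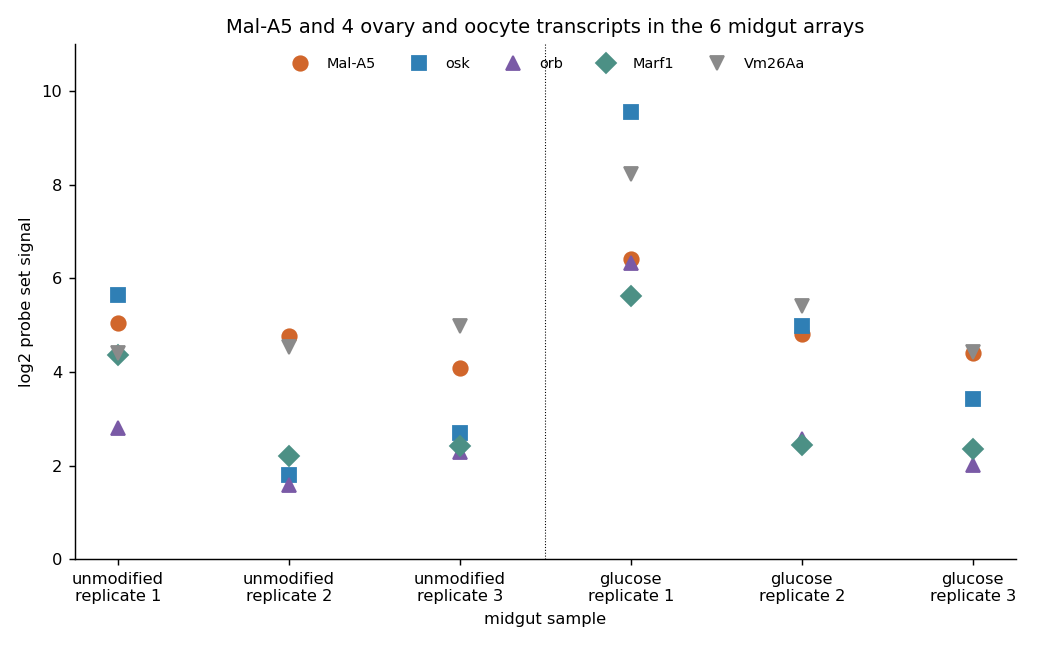
Log2 probe set signal (vertical axis) of Mal-A5 and of the ovary and oocyte genes osk, orb, Marf1 and Vm26Aa in the 6 midgut arrays, 3 per diet. Glucose replicate 1 has the highest value of each of the 5 genes shown, with Mal-A5 at 6.41 and osk at 9.55. The measured marker bam, not shown, was at 3.15 there and at 3.26 in unmodified replicate 1.

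The third comparison asked the same of whole flies, midgut included. One maltase gene, Mal-A4, fell there, among 337 probe sets called lower (1.8%) and 247 called higher (1.32%), 3.11% in all. That background of 584 calls was not stable: leaving out any of 5 of the 6 arrays left 0 to 2 probe sets called, and leaving out glucose replicate 2 gave 1563. Differences lay below 0 for 7 of the 10 genes, against 50.3% of all probe sets. Mal-A4 read 7.34, 6.77 and 6.88 on the unmodified and 5.42, 6.07 and 6.17 on the glucose diet. The diets did not overlap, as for 13.7% of all probe sets in that direction, and the gene was 2.16-fold lower at -1.11 (95% interval -1.64 to -0.59, limma adjusted p 0.0467). The call rested on the set of arrays. Dropping unmodified replicate 1, 2 or 3 gave limma adjusted p-values of 0.134, 0.0882 and 0.0784. Dropping glucose replicate 1, 2 or 3 gave 0.130, 0.0360 and 0.127. The difference itself stayed between -1.25 and -0.88.

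Mal-A3 in whole flies read 6.74, 6.21 and 6.83 against 5.42, 5.98 and 6.33, a difference of -0.68 (95% interval -1.26 to -0.11, limma adjusted p 0.161). The ranges overlapped at glucose replicate 3. Mal-B2 read 7.79, 7.88 and 7.55 on the unmodified and 8.70, 7.93 and 8.48 on the glucose diet, and here the glucose values were all higher, by 0.63 on average (95% interval 0.17 to 1.09, limma adjusted p 0.114). It was the 1 maltase gene higher without overlap, against 11.6% of all probe sets, and with glucose replicate 2 left out it was called, at 0.85 (limma adjusted p 0.0249), among the 1563 probe sets called in that fit. Leaving out any of the other 5 arrays gave adjusted p-values of 0.179 to 0.319.

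The other 7 genes overlapped between diets in whole flies, with differences from -0.48 (SE 0.55) for Mal-A7 to 0.19 (SE 0.28) for Mal-A8. Mal-A5 hardly varied, at 8.62 ± 0.035 and 8.68 ± 0.10 (SD, n = 3). Mal-A1 ranged from 10.74 to 11.77 and from 10.39 to 11.44, at -0.35 (SE 0.33). Mal-B1, at -1.30 in midgut, was at -0.35 (95% interval -0.75 to 0.05) in whole flies. Among the 7 midgut-rich Mal-A genes unmodified replicate 1 held the highest unmodified value for 6 and glucose replicate 2 the highest glucose value for 5. The family median was -0.25, and without unmodified replicate 1 it was -0.00094. The summed log2 signal of the midgut markers overlapped between diets, at 14.04 to 14.71 and 14.35 to 14.58. The bright protease genes betaTry, alphaTry and Jon65Aiv make up most of that sum. Marker by marker the median difference was 0.12, with 1 of 6 below 0 and none called. The summed signal of photoreceptor markers, all 5 measured, was at 11.43 to 12.03 and 12.57 to 13.10, and that of muscle markers, 3 of 4 measured, at 11.18 to 11.79 and 12.17 to 12.69. Ovary and oocyte markers were at 13.19 to 13.50 and 12.30 to 13.23. Fat body markers were at 14.55 to 14.88 and 14.63 to 14.80, and among them Lsp2, a storage protein gene, was at -2.48 (SE 0.55, limma adjusted p 0.0540). Marker by marker, ovary and oocyte markers had a median difference of -0.74, with 5 of 5 below 0 and 2 called lower. All 5 photoreceptor markers and 1 of the 3 measured muscle markers were called higher. Of all probe sets 1.8% were called lower and 1.32% higher, and these counts depended on the arrays kept. The part of tissue proportions in the whole fly values was not tested.

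**Figure D5:**
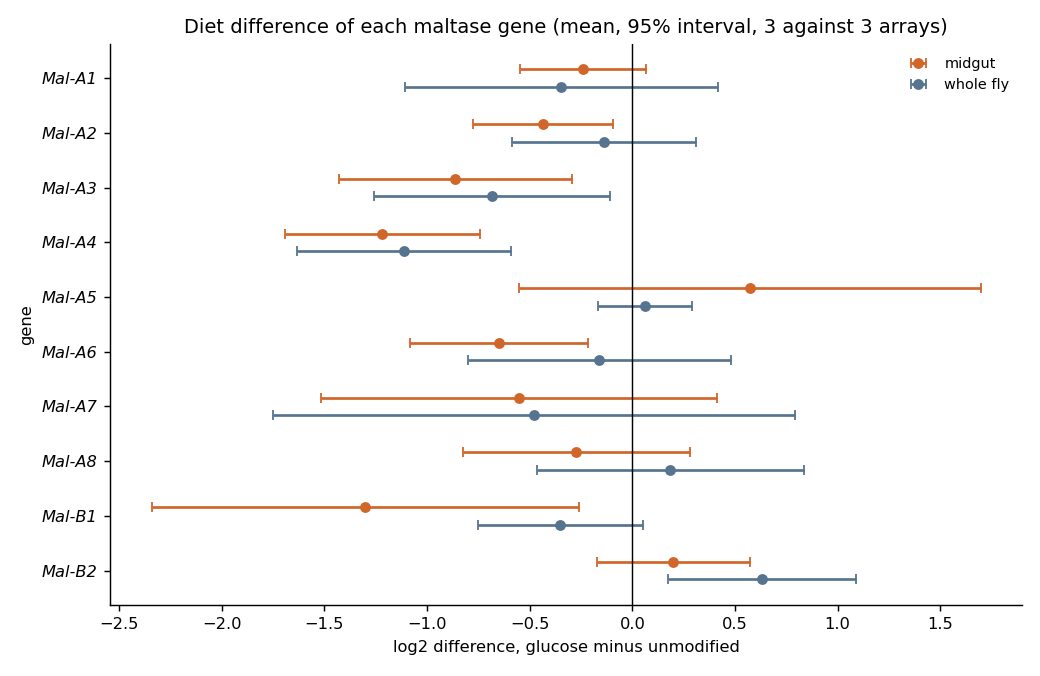
Log2 difference, glucose minus unmodified (horizontal axis), of each maltase gene in midgut and in whole fly, with 95% intervals from limma over the 6 arrays of that tissue. Mal-A4 lies at -1.22 in midgut and -1.11 in whole fly, and Mal-B1 at -1.30 and -0.35.

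The difference between the diet effects of midgut and whole fly was tested in 1 fit over all 12 arrays. Whole flies include the midgut, so the 2 effects are not those of separate tissues. The part of the midgut in the whole fly differences was not tested. No maltase gene passed, and 8 probe sets were called in all (0.0426%). That count ranged from 0 to 361 when 1 array was left out, the 361 without whole fly glucose replicate 2. None of the 10 had an unadjusted p under 0.05 in limma, against 8.81% of all probe sets higher and 6.28% lower. For Mal-A4 the effects differed by -0.10 (95% interval -0.84 to 0.63, limma adjusted p 0.922). Mal-B1 had the largest difference between tissues, -0.95 (95% interval -2.13 to 0.23, limma adjusted p 0.439). With the replicate block its adjusted p was 0.0760, but that block also pairs whole fly samples by number, which were not taken as pairs. The difference moved between -1.40 without midgut glucose replicate 1 and -0.48 without midgut glucose replicate 3.

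The 7 midgut-rich Mal-A genes also varied together among replicates. After removing group means, the 21 pairs of the 7 midgut-rich Mal-A genes had correlations over the 12 arrays between 0.17 and 0.94, with a median of 0.72. These points share arrays, RNA and normalization. Correlations of deviations were not computed between other genes, so no background stands beside these values, and the covariation may not be particular to maltases. Mal-A7 and Mal-A8, which are neighbours, were at 0.94, and Mal-A3 and Mal-A6 at 0.17. The other 24 pairs had a median of 0.0047. Mal-A5 and Mal-B1 were the exception at 0.89, a value to which midgut glucose replicate 1 contributes in both genes as the highest glucose midgut. The named genes outside the family with the signal most like the mean of the 10 over the 12 arrays were Gal, a beta-galactosidase gene, at a Pearson correlation of 0.985, Jon99Ci, a Jonah serine protease gene, at 0.971, CG4363 at 0.970, CG15533 at 0.968 and CG9547 at 0.965, out of 11972 compared. Over the 6 midgut arrays alone these correlations were 0.946, 0.825, 0.902, 0.912 and 0.846. The difference between tissues makes up most of the 12-array measure. On glucose against unmodified in midgut these genes, in the same order, were at -0.59, -1.12, -0.45, -1.87 and -0.52. In whole flies they were at -0.53, -0.91, -0.14, -1.27 and -0.21. They were picked on the same 12 arrays, so likeness in the diet difference is in part built in.

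Other enzymes that split sugar chains also lay mostly lower on glucose in midgut. Of 13 listed, 11 were measured, and 10 of these lay below 0, against 49.8% of all probe sets. Their median midgut difference was -0.48, and that of the maltases was -0.49. None of the 11 was called unpaired. With the replicate block 1 was lower, the amylase-related gene Amyrel at -1.56 (limma adjusted p 0.0137 blocked, 0.0941 unpaired). Amyrel read 5.59, 6.13 and 6.38 on the unmodified and 4.33, 4.47 and 4.63 on the glucose diet, without overlap. The alpha-glucosidase family gene tobi, known as a target of insulin signalling, was at -0.82 (SE 0.30), with 11.72, 11.25 and 10.83 against 9.86, 10.89 and 10.60. LManI and LManVI, of the lysosomal alpha-mannosidases, were at -0.35 (SE 0.12) and -0.60 (SE 0.22). LManII, LManIII, LManIV and LManV were at -0.13 (SE 0.19), -1.20 (SE 0.53), -0.90 (SE 0.57) and -0.48 (SE 0.38). LManIV read 5.15 in unmodified replicate 1 and 2.57 to 2.85 in the other midguts. GCS1 and GCS2alpha, glucosidases that trim sugars from new glycoproteins in the endoplasmic reticulum, were at 0.11 (SE 0.11) and -0.032 (SE 0.11). Treh, which splits trehalose, was at -0.24 (SE 0.14). In whole flies the list median was -0.083 and none of the 11 was called. The smallest p-values there belonged to GCS1 at -0.40 (SE 0.14), Amyrel at -0.44 (SE 0.16) and tobi at -0.94 (SE 0.45). LManII was at 0.59 (SE 0.34) and LManIII at -1.61 (SE 0.79).

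CD98hc, a relative of the maltases that serves amino acid transporters as their heavy chain, was at -0.071 (SE 0.12) in midgut. In whole flies it was at -0.27 (SE 0.10), and it was called lower in midgut than in whole fly on the unmodified diet, with a log2 difference of -1.95 (limma adjusted p 1.40e-08). None of 9 sugar transporter genes was called in either tissue, with medians of -0.033 in midgut and -0.10 in whole fly. The smallest p-values in midgut belonged to nebu at -0.72 (SE 0.19), Tret1-1, a trehalose transporter gene, at -0.29 (SE 0.18) and Slc45-1, a sucrose transporter gene, at -0.099 (SE 0.13). In whole flies they belonged to sut1 at -0.65 (SE 0.21), Glut1 at -0.43 (SE 0.16) and sut2 at 0.38 (SE 0.15).

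Of 8 sugar-sensing genes none was called in midgut (median 0.32) and 4 rose in whole flies (median 0.61), where 1.32% of all probe sets were called higher. Without any of 5 of the 6 whole fly arrays none of the 8 was called, and without glucose replicate 2 there were 5. Those 4 were sug, encoding a sugar-responsive transcription factor, at 1.14 (SE 0.15), bigmax, whose product pairs with Mondo, a sensor of sugar, at 0.58 (SE 0.092), cbt at 0.63 (SE 0.11) and the activin gene Actbeta at 0.71 (SE 0.12). In midgut sug read 8.78, 9.29 and 9.14 on the unmodified and 9.39, 10.21 and 9.72 on the glucose diet, a difference of 0.70 (SE 0.22, limma adjusted p 0.713). The diets did not overlap. Fatty acid synthase gene FASN1 was at 0.36 (SE 0.13) and bigmax at 0.38 (SE 0.15) there. The Dawdle gene daw was at 0.37 (SE 0.17) in midgut and at 0.94 (SE 0.30, limma adjusted p 0.121) in whole flies.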

How the data were processed

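Signals were summarised by the authors as log2 values per probe set with Affymetrix Expression Console, per the submitters' processing notes. Neither its version nor the algorithm is known here, nor if both tissues went through 1 normalization. The log2 scale of the deposited values was read from their range, 1.44 to 14.1. Of 18952 probe sets, 183 Affymetrix controls were left out. Names came from the platform annotation and were checked through gene identifiers against the RefSeq table, which held all 10 maltase genes. No coordinates or sequences are given, as the values name no genome build. Within a group at most 0.0213% of probe sets had identical values in a pair of arrays, so none was counted as a duplicate.

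Each comparison was fitted across all 18769 probe sets with limma 3.58.1 (lmFit, eBayes) in R 4.3.3, two-sided, adjusted by Benjamini-Hochberg over all of them and called under 0.05. Diet comparisons used the 6 arrays of a tissue, the others all 12, with no covariate. With 3 against 3, an exact permutation test cannot go below 0.1. Signals of a probe set were not set against those of another, and dim signals are compressed. Deviations from group means correlated between same-numbered samples at 0.392, 0.313 and 0.357 in midgut, all over 0.1, and at 0.198, 0.306 and -0.00849 in whole fly. The numbers were therefore taken as pairs in midgut only. What a shared number means is not in the labels, so the pairing rests on these correlations.

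All 10 members were described, and the members and lists were chosen with earlier results of these data known. Of the other lists, genes called in a diet comparison with or without the block were named, or up to 3 with the smallest p, together with further members chosen after their values were seen. The fits were also run on simulated data drawn without a pair effect, which cannot check the pairing behind the replicate block. Alternatives were another prior, scaling and filter, the replicate block, other array sets and leaving out each array.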

Additional observations from a re-analysis of the deposited data

How the results depend on the processing

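The number of arrays and the dimness of some signals limit what can be seen, since 3 against 3 leaves wide intervals. In midgut on glucose against unmodified, 0 maltase genes were called in the unpaired limma fit and under the planned settings other than the block, and 2 with the replicate block. Leaving out 1 array gave 0 throughout, and leaving out 1 pair from the replicate block gave 0 to 1. In whole flies 1 was called, and 0 to 2 when 1 array was left out. The replicate block left that count at 1 and changed no other maltase call except Mal-B1 in midgut against whole fly on glucose (adjusted p 0.0141). For tissue contrasts the block joins same-numbered midgut and whole fly samples. Their deviations correlated at -0.0471, -0.0399 and 0.0692 on the unmodified and -0.207, -0.0548 and 0.0285 on the glucose diet, none over 0.1. Blocking also moved the whole fly count of all probe sets from 584 to 1711 and that of the difference of diet effects from 8 to 749. In whole fly the samples share only a number; blocked, LManII (adjusted p 0.0416), LManIII (0.0462) and daw (0.0237) were also called there. The fit over 12 arrays called 1234 in whole flies and 6 in midgut, and trend with robust prior called 10 in midgut. Array centring called 24 and quantile normalization 21 for the difference of diet effects, of which 83.3% and 61.9% were higher against 87.5% of the 8. Leaving out the dimmest probe sets, or trend with robust prior, called 0 of these. In the tissue contrasts centring called 16043 on the unmodified and 15605 on the glucose diet, against 10411 and 9951 as deposited. There the share of calls that were higher was 69.2% and 72.5% under centring and 54.2% and 54.7% under quantile normalization, against 26.9% and 22.3% as deposited.

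Of the alternatives for single genes, 23 turned a direction, none of them of a called difference. In midgut Mal-A5 ranged from -0.029 to 0.97 without 1 array, and Mal-A8 stood at 0.032 without both replicate 1 midguts, in the unpaired fit and the replicate block alike, a setting chosen after seeing the data, as was leaving out pairs. In whole flies without 1 array Mal-A2 ranged from -0.26 to 0.041, Mal-A6 from -0.34 to 0.18 and Mal-A8 from -0.074 to 0.42. For the difference of diet effects Mal-A1 ranged from -0.20 to 0.42, Mal-A3 from -0.46 to 0.031, Mal-A4 from -0.35 to 0.037, Mal-A5 from -0.091 to 0.91 and Mal-A7 from -0.52 to 0.51. Mal-A4 was at 0.070 there under quantile normalization. The cause was not tested. Each gene had 1 probe set, so averaging probe sets gave no other value.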
